A study of Mus musculus with 8 samples.

Results

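The tumour necrosis factor (TNF) superfamily, its TRAF adaptors and the NF-kappaB genes were followed in mouse CD8 T cells sorted for or against the inhibitory IgG receptor FcgRIIB. Members were the genes of the deposited table whose symbol begins with Tnfrsf, Tnfsf, Tnfaip, Traf or Nfkb, or is Rel, Rela, Relb, Birc2 or Birc3. Tnfrsf4, Tnfrsf9 and Tnfrsf18 were left out by that definition. This gave 51 members among 13204 genes: 7 ligands, 14 receptors, 7 numbered TRAFs, 4 other TRAF-named genes, 5 NF-kappaB subunits, 6 Nfkbi genes, 2 cIAPs and 6 Tnfaip genes. The choice used names only, with earlier results of these data known.

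OT-I cells, which carry a transgenic T cell receptor for an ovalbumin peptide, were transferred (1000000 per mouse) and a graft of ovalbumin-expressing skin followed 24 hours later. On day 14 the spleens were taken and pooled by 3, giving 4 pools numbered as replicates 1 to 4. Each pool yielded an FcgRIIB-positive and an FcgRIIB-negative sort of 1000 CD44hi, Thy1.1+, CD8+ cells, so both groups hold the transferred OT-I strain, the graft and the same day, and differ in the receptor gate. The labels give neither age nor host strain. Replicates are separate pools of animals, and pooling hides the spread between single mice.

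Ligands of the TNF superfamily are mostly trimeric membrane proteins that cluster their receptors on other cells. Receptors with TRAF-binding tails recruit TRAF adaptors and the cIAP ubiquitin ligases, which lead to the IKK kinases. IKK causes IkappaB inhibitors to be degraded and so frees NF-kappaB dimers, or causes the Nfkb2 product to be processed with Relb. In activated CD8 T cells these receptors are known for costimulation, survival and death signals, and in dendritic cells for maturation.

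Several members are textbook NF-kappaB targets, so the kappaB consensus site was looked for upstream of each. RefSeq promoter sequences (build GRCm38.p6) were matched by Entrez gene identifier for 41 of 51 members. The entries absent were Tnfsf4, Tnfsf9, Tnfrsf22, Tnfrsf26, Tnfrsf10b, Traf3ip2, Nfkb1, Relb, Nfkbiz and Tnfaip8. The 10-base consensus was searched on both strands in the 250 bases before the start. It was found for 8 of these 41 members (19.5%), namely Rel, Nfkb2, Nfkbia, Nfkbie, Nfkbid, Tnfaip3, Traf3 and Tnfaip8l1, and for 4.46% of the 27025 genes in the promoter table. Stretches around the match are shown for 3 inhibitors or feedback genes, 2 subunits and the 1 called-lower gene among the 8, so that they can be set beside the values below. Sequences run 5′ to 3′ on the gene's strand and capitals mark the consensus.
Rel (chr11:23771026-23771086, minus strand): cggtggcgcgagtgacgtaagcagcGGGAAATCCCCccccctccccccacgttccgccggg
Nfkb2 (chr19:46304673-46304736, plus strand): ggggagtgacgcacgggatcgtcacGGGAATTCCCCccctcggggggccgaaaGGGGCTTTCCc
Nfkbia (chr12:55492648-55492701, minus strand): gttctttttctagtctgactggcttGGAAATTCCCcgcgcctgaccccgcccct
Nfkbie (chr17:45555569-45555628, plus strand): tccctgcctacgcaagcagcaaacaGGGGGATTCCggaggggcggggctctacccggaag
Tnfaip3 (chr10:19015411-19015447, minus strand): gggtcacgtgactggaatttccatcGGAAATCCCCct
Tnfaip8l1 (chr17:56162318-56162377, plus strand): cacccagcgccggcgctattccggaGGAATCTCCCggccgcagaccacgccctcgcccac
Nfkb2 and Tnfaip3 have further matches in windows of other annotated starts or farther upstream, which are not printed. The capitals in Rel span 2 overlapping matches, and those of the first Nfkb2 block also 2. The Nfkbia match ends 20 bases before the start and that of Tnfaip3 3 bases before it. A match is a description of letters, and binding was not measured.

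Values are RPKM, read counts divided by exon length and by library size. Depth, recovered from the steps between values, ran from 3050000 to 22010000 reads, with more reads in pools 1 and 2 (16470000 or more) than in pools 3 and 4 (7360000 or fewer). Fcgr2b, which codes for the receptor used in the sort, stood at 29.6 to 69.9 RPKM in positive and 1.82 to 4.82 RPKM in negative libraries. Markers of other cells differed between the groups. Of 15 dendritic cell markers 13 were higher, with a summed level of 721.8 to 1384 RPKM in positive and 34.5 to 114.1 RPKM in negative libraries. Of 15 monocyte and macrophage markers 12 were higher (sums 3120 to 4345 against 1738 to 3447 RPKM), and all 9 basophil and mast cell markers were higher (91.2 to 1286 against 9.34 to 46.8 RPKM). The monocyte and macrophage sums include Ly6c2, which was lower in 4 of 4 pairs and not called. Ly6c2 was at 586.6 to 2422 RPKM in positive and 1431 to 3210 RPKM in negative libraries. Core T cell genes were lower for 7 of 16, with sums of 2228 to 4861 against 5866 to 9461 RPKM. No marker in the table was at 0 throughout a group. The part of these cells in the results below was not tested, and in bulk RNA fewer cells of a type and less RNA per cell cannot be told apart.

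The members moved in both directions. In limma with the replicate number as a block, 8 of 50 tested members were higher in FcgRIIB-positive cells (16.0%, against a background of 7.22% of all 11946 genes tested) and 5 were lower (10.0%, background 3.85%). Those higher were Tnfrsf21, Tnfaip2, Trafd1, Rel, Tnfrsf17, Tnfrsf1a, Nfkb1 and Tnfsf9, and those lower were Tnfsf4, Tnfsf8, Traf3ip2, Tnfaip8l1 and Traf3ip3. A call means a Benjamini-Hochberg adjusted p under 0.05 over all genes tested. The median log2 fold change of the members was -0.07 and that of all genes tested -0.11. Differences are given as positive minus negative after taking log2(RPKM + 1), which understates low genes. The groups did not overlap for 4 members that were higher (background 4.61%) and 3 that were lower (background 4.15%). The direction was the same in all 4 pairs for 23 of 50 members (46.0%, background 30.1%). Tnfsf15, which codes for the ligand TL1A, was at 0.15 to 2.98 RPKM and was not tested.

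**Figure D1:**
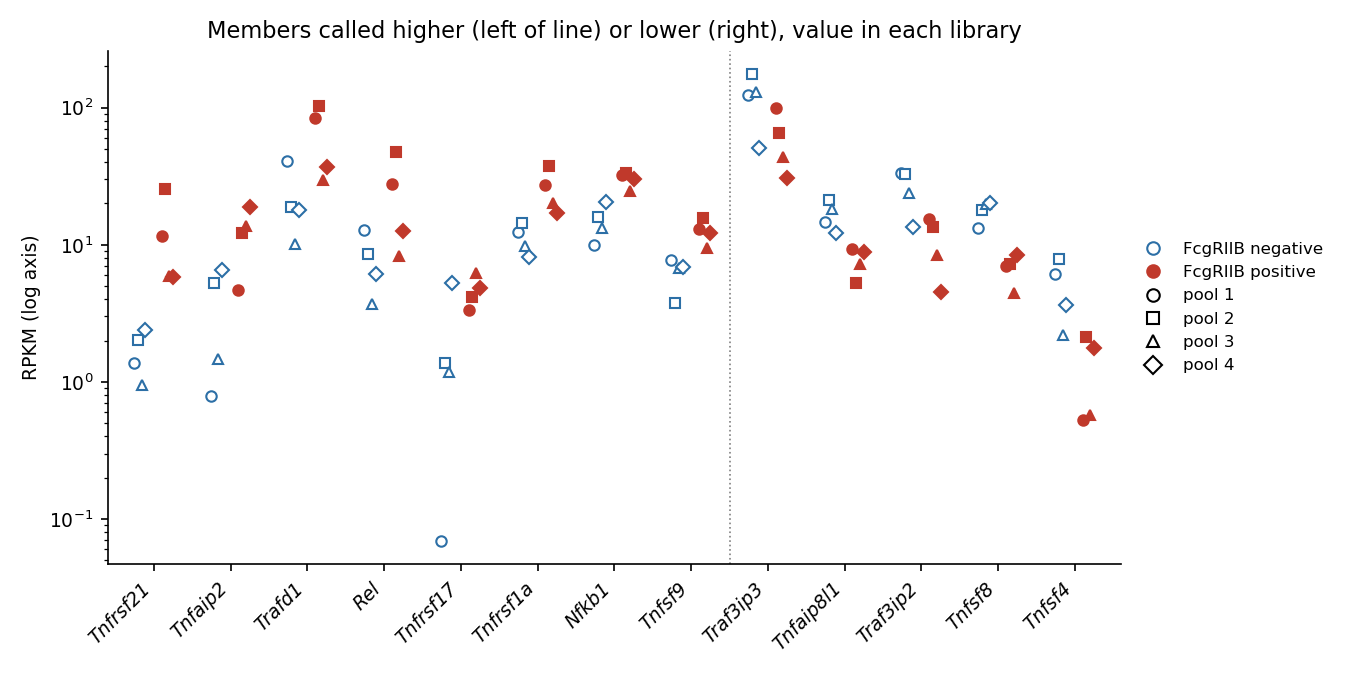
RPKM (log axis) of the 13 called members in each of the 8 libraries, with open blue symbols for FcgRIIB-negative, filled red symbols for FcgRIIB-positive libraries and 1 symbol shape per pool. Tnfrsf21 lies at 5.85 to 25.5 RPKM in positive and 0.94 to 2.41 RPKM in negative libraries, and Tnfsf8 at 4.48 to 8.37 against 13.2 to 20.3 RPKM.

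How firm the calls were depended on the pairing. Without the block limma called 2 of these 13 members (background in either direction 3.3%), Tnfrsf21 higher (background 3.03%) and Tnfsf8 lower (background 0.268%). With the block the background in either direction was 11.1%. At an unadjusted p under 0.05, 11 of 50 members were higher and 10 lower with the block, against 1312 and 1464 of all 11946 genes tested. Without it, 8 members were higher and 6 lower, against 893 and 558 of all genes tested. These counts over all genes are the background of the unadjusted counts given below. With each pool left out in turn 7 of the 13 stayed called in all 4 fits: Tnfsf8, Tnfrsf21, Tnfrsf1a, Trafd1, Traf3ip2, Rel and Tnfaip2. A scaling that set the core T cell genes level between libraries raised the median of all genes by 0.94 and called 6471 genes higher and 17 lower, in place of 863 and 460. In that scaling the 8 members called higher stayed called, and the 5 called lower had log2 fold changes of -0.05 to -0.44 and were not called.

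Among the ligands, Tnfsf8 and Tnfsf4 were lower and Tnfsf9 was higher in FcgRIIB-positive cells. Tnfsf8 (Entrez 21949) codes for CD30 ligand, which activated T cells display. Its level was 6.95, 7.24, 4.48 and 8.37 RPKM in positive pools 1 to 4, and 13.2, 17.9, 19.9 and 20.3 RPKM in the negative ones. Every positive library lay below every negative one. All 4 pairs were lower, by a log2 fold change of -1.29 (SE 0.26, limma adjusted p = 0.00151).

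Tnfsf4 (Entrez 22164), the gene of OX40 ligand, known from antigen-presenting cells and some T cells, was low in all libraries. Its level was 0.53, 2.12, 0.57 and 1.76 RPKM in the positive libraries of pools 1 to 4 and 6.13, 7.91, 2.20 and 3.66 RPKM in negative replicates 1 to 4. The groups did not overlap, although positive replicate 2 and negative replicate 3 lay close together, and the value of positive replicate 3 rests on 6 reads. A log2 fold change of -1.38 resulted (SE 0.33, limma adjusted p = 0.00622), and leaving out pool 1 took the adjusted p to 0.110.

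Tnfsf9 (Entrez 21950) codes for 4-1BB ligand, a costimulatory ligand of activated antigen-presenting cells. It was at 13.0, 15.7, 9.49 and 12.1 RPKM in the positive libraries of pools 1 to 4 and 7.74, 3.79, 6.74 and 6.92 RPKM in negative replicates 1 to 4, without overlap. The log2 fold change of 0.91 (SE 0.28, limma adjusted p = 0.0368) was the smallest of the called members. It was called in 1 of 4 fits with a pool left out, and the adjusted p was 0.0956, 0.180 and 0.0806 without replicates 1, 2 and 3.

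The other 3 tested ligands were not called. Tnfsf10, the gene of the death ligand TRAIL, was at 3.81 to 6.24 RPKM in positive and 4.49 to 9.19 RPKM in negative libraries (log2 fold change -0.41, SE 0.28). Tnfsf14, the gene of LIGHT, was at 3.15 to 5.95 against 3.73 to 6.88 RPKM, and Tnfsf13b, the gene of the B cell survival factor BAFF, at 0.98 to 1.94 against 0.17 to 1.85 RPKM. Their ranges overlapped between the groups, and Tnfsf13b passed the threshold (higher) without replicate 4 (adjusted p = 0.0352).

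Of 14 receptors 3 were higher (21.4%, background 7.22%) and none passed the limma threshold as lower (background 3.85%). At an unadjusted p under 0.05, 3 were lower with the block and 1 without it, against 1464 and 558 of all 11946 genes tested. Tnfrsf21 (Entrez 94185), which codes for the death-domain receptor DR6, was at 11.5, 25.5, 5.91 and 5.85 RPKM in the positive libraries of pools 1 to 4. In negative replicates 1 to 4 it was at 1.37, 2.02, 0.94 and 2.41 RPKM. All positive libraries lay above all negative ones, and those of replicates 1 and 2 were highest. At 2.09 (SE 0.33, limma adjusted p = 8.6e-05), its log2 fold change was the largest of the tested members.

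Tnfrsf1a (Entrez 21937) codes for TNF receptor 1, the widely expressed death-domain receptor for TNF. It was at 27.5, 37.4, 20.1 and 17.0 RPKM in the positive libraries of pools 1 to 4 and 12.5, 14.4, 9.77 and 8.20 RPKM in negative replicates 1 to 4. The groups did not overlap (log2 fold change 1.08, SE 0.24, limma adjusted p = 0.003). Tnfrsf1b, the gene of TNF receptor 2, which lacks a death domain, was at 34.7, 37.6, 9.70 and 9.32 RPKM in positive and 33.3, 14.6, 10.0 and 10.9 RPKM in negative replicates 1 to 4. It parted the pools rather than the groups (log2 fold change 0.28, SE 0.27, limma adjusted p = 0.612). Whether the 2 TNF receptors differ in their response was not tested.

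Tnfrsf17 (Entrez 21935), the gene of BCMA, a receptor of plasma cells, was at 3.37, 4.14, 6.24 and 4.87 RPKM in the positive libraries of pools 1 to 4. In negative replicates 1 to 4 it was at 0.07, 1.38, 1.17 and 5.24 RPKM, so that negative replicate 4 lay within the positive range. The value of negative replicate 1 rests on 1 read. It was higher in 3 of 4 pairs, with a log2 fold change of 1.20 (SE 0.35, limma adjusted p = 0.027), and the adjusted p was 0.222 without replicate 1 and 0.212 without replicate 3. In the same libraries the plasma cell genes Jchain and Mzb1 were called higher and the B cell gene Cd22 lower, and the sum of B cell and plasma cell markers was 544.7 to 1239 against 148.3 to 980.5 RPKM.

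The B cell receptors for BAFF were not called, with Tnfrsf13b (TACI) at 4.77 to 9.61 against 6.59 to 17.4 RPKM and Tnfrsf13c (BAFF receptor) at 2.93 to 5.16 against 3.82 to 9.93 RPKM. Tnfrsf26 was the most abundant receptor among the members, at 53.4, 18.5, 22.96 and 22.4 RPKM in positive and 60.1, 32.9, 34.9 and 43.0 RPKM in negative replicates 1 to 4. It was lower in 4 of 4 pairs without a call (log2 fold change -0.61, SE 0.23, limma adjusted p = 0.0976). Tnfrsf22 and Tnfrsf23, decoy receptors for TRAIL from the same gene cluster, had log2 fold changes of -0.74 and -0.10, and without replicate 2 Tnfrsf22 passed the threshold (adjusted p = 0.048). These 3 are closely related paralogs whose reads may be shared, so their values are uncertain.

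Tnfrsf11a, the gene of RANK, was at 2.61 to 4.95 RPKM in positive libraries and at 0.42, 0.56, 1.18 and 6.12 RPKM in negative replicates 1 to 4. Negative replicate 4 was thus above every positive library (log2 fold change 0.99, SE 0.35, limma adjusted p = 0.0744). Without replicate 4 Tnfrsf11a passed the threshold (adjusted p = 0.000256). Tnfrsf25, which codes for the TL1A receptor DR3 of T cells, was lower in 4 of 4 pairs without a call (-0.60 on the log2 scale, SE 0.29). Tnfrsf10b, Tnfrsf12a and Tnfrsf14 had log2 fold changes of -0.17, -0.07 and 0.00, with 2 of 4 pairs in each direction.

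**Figure D2:**
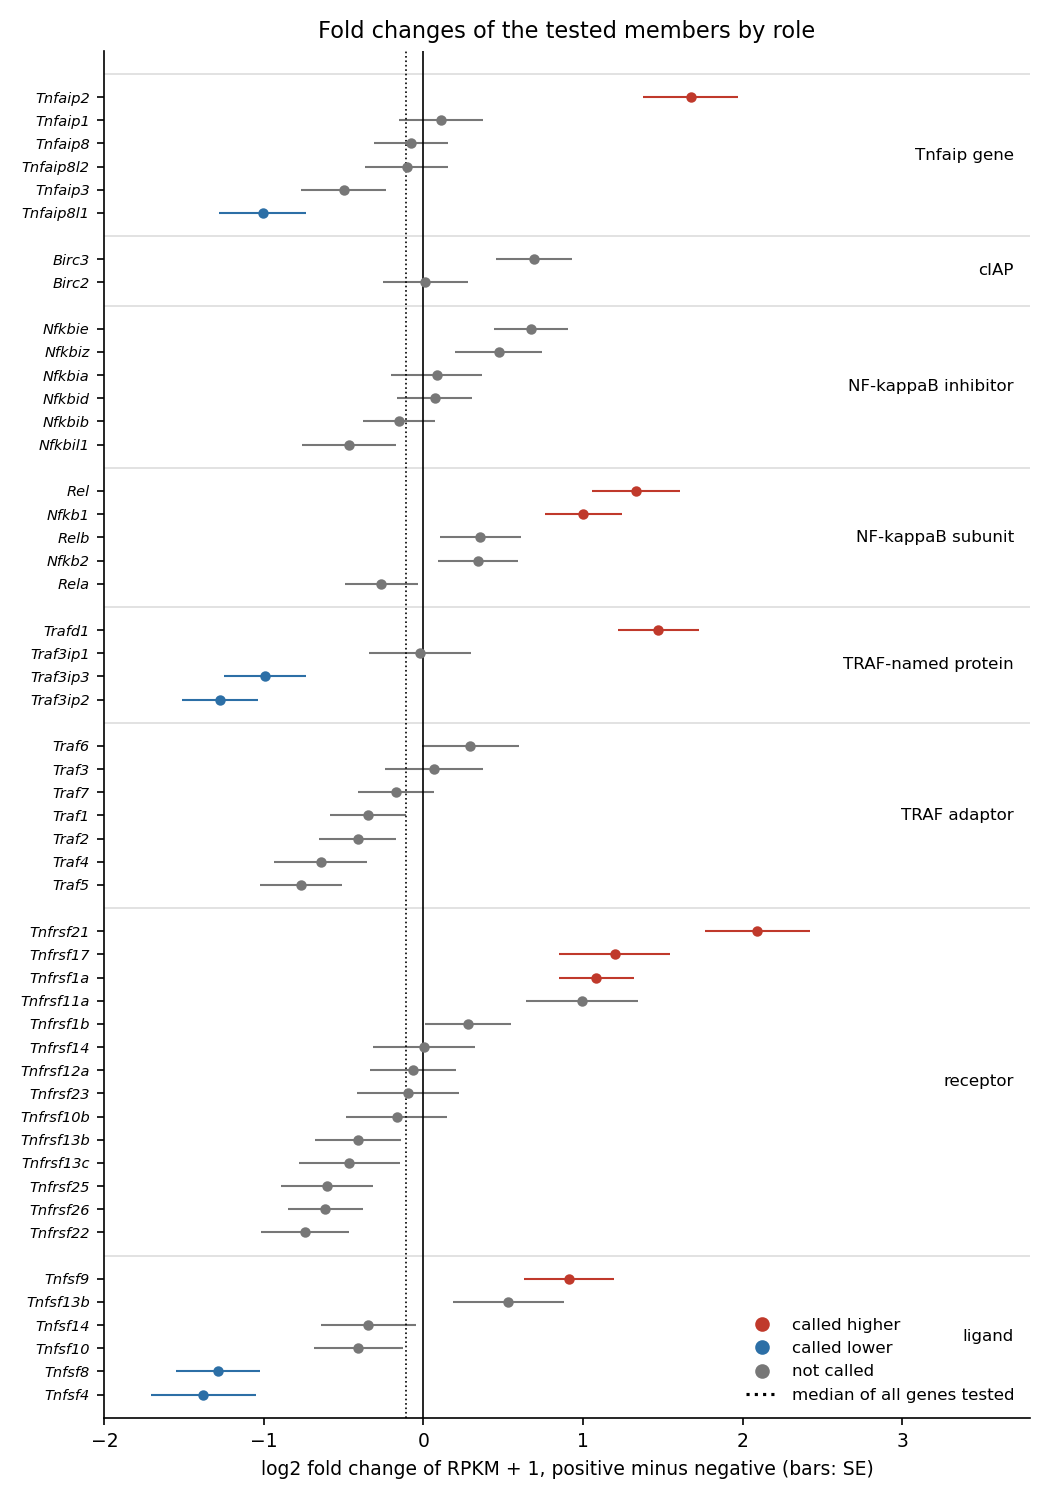
Log2 fold change of RPKM + 1 (positive minus negative) with its SE for the 50 tested members, grouped by role and coloured by call, beside the median of all genes tested (dotted, -0.11). The 8 members called higher lie between 0.91 and 2.09 and the 5 called lower between -0.99 and -1.38. No numbered TRAF, Nfkbi gene or cIAP was called.

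None of the 7 numbered TRAF adaptors was called by limma with or without the block. At an unadjusted p under 0.05, 2 were lower with it and 1 without it, and none was higher. Traf1, which is itself induced by NF-kappaB and pairs with Traf2, was the most abundant. It was at 104.1, 116.2, 49.8 and 44.7 RPKM in positive and 117.9, 122.1, 87.8 and 56.6 RPKM in negative replicates 1 to 4. Traf2 was at 35.3, 31.4, 12.4 and 12.1 RPKM in positive and 37.8, 32.7, 25.2 and 17.95 RPKM in negative replicates 1 to 4. Both were lower in 4 of 4 pairs without a call (log2 fold changes -0.35, SE 0.24, and -0.41, SE 0.24, limma adjusted p = 0.430 and 0.334). Both were above 0 after scaling to core T cell genes.

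Traf5, an adaptor of costimulatory receptors, came nearest to a call among them, with means of 7.84 ± 3.05 and 13.7 ± 3.31 RPKM (SD, n = 4 each). It was lower in 4 of 4 pairs, by -0.77 on the log2 scale (SE 0.26, limma adjusted p = 0.0588), and passed without replicate 2 (adjusted p = 0.0417). Traf4 was at -0.65 (SE 0.29). Traf3, which restrains the NF-kappaB pathway of Nfkb2 and Relb, was at 0.07 (SE 0.31). Traf6, the adaptor of Toll-like and interleukin-1 receptors, was at 0.29 (SE 0.31) and Traf7 at -0.17 (SE 0.24) on the log2 fold change scale.

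Of the other genes named for TRAFs, Trafd1 was higher and Traf3ip2 and Traf3ip3 were lower. Trafd1 (Entrez 231712) codes for FLN29, an interferon-induced restraint on innate signalling. It was at 84.2, 102.4, 29.7 and 37.2 RPKM in positive and 40.7, 18.8, 10.2 and 17.8 RPKM in negative replicates 1 to 4. Each positive library exceeded the negative library of its own pool, while the groups overlapped through negative replicate 1. This gave a log2 fold change of 1.47 (SE 0.25, limma adjusted p = 0.000266).

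Traf3ip2 (Entrez 103213) codes for Act1, the adaptor of interleukin-17 receptors. It was at 15.4, 13.5, 8.47 and 4.53 RPKM in positive and 33.4, 33.0, 24.0 and 13.6 RPKM in negative replicates 1 to 4. Each pool was lower in its positive library (log2 fold change -1.27, SE 0.24, limma adjusted p = 0.000639). Negative replicate 4 was the only negative library within the positive range.

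Traf3ip3 (Entrez 215243), the gene of a TRAF3-binding protein of lymphocytes, was at 100.1, 65.2, 43.4 and 30.9 RPKM in positive and 122.8, 175.7, 129.0 and 51.2 RPKM in negative replicates 1 to 4. It was lower in 4 of 4 pairs with overlapping groups (log2 fold change -0.99, SE 0.26, limma adjusted p = 0.0118). Without replicate 3 the adjusted p was 0.137. Annotated exons on the opposite strand overlap Trafd1, Traf3ip2 and Traf3ip3, as they do Tnfsf9, Tnfrsf23, Tnfrsf26, Tnfaip2, Tnfaip8, Tnfaip8l1, Traf5, Traf7, Nfkbib, Nfkbil1 and Nfkb2, and Traf7 also shares exon sequence with Rab26 on its own strand. The cDNA kit does not mark strand, so reads of such partners cannot be told apart and these values are uncertain to that extent. Traf3ip1, which codes for a protein of cilia, was at 1.70 to 3.44 against 0.96 to 6.54 RPKM and was not called.

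Of the 5 NF-kappaB subunits, Rel and Nfkb1 were higher in FcgRIIB-positive cells and Rela, Relb and Nfkb2 were not called. Rel (Entrez 19696) codes for c-Rel, the subunit most tied to lymphocyte and dendritic cell activation. It was at 27.8, 47.4, 8.26 and 12.6 RPKM in positive and 12.8, 8.62, 3.68 and 6.08 RPKM in negative replicates 1 to 4. Each pool was higher in its positive library, and the difference was largest in replicate 2. The groups overlapped, as positive replicates 3 and 4 lay below negative replicate 1. Over 4 pairs limma gave 1.33 on the log2 scale (SE 0.27, adjusted p = 0.00172), and leaving out pool 2 gave 1.00 (adjusted p = 0.00571).

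Nfkb1 (Entrez 18033) codes for p105, the precursor of the p50 subunit. It was at 32.1, 33.5, 24.6 and 30.4 RPKM in positive and 9.99, 16.0, 13.2 and 20.5 RPKM in negative replicates 1 to 4, without overlap. All 4 pairs were higher, by 1.00 on the log2 scale (SE 0.24, limma adjusted p = 0.00756), with an adjusted p of 0.0841 when pool 1 was left out.

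Rela, the gene of the transactivating subunit p65, had the highest mean of the subunits per kilobase in both groups. It was at 71.5, 62.1, 37.6 and 34.8 RPKM in positive and 82.6, 89.0, 47.0 and 35.4 RPKM in negative replicates 1 to 4. Its log2 difference of -0.26 (SE 0.23, limma adjusted p = 0.559), of one sign in 4 of 4 pairs, became 0.68 after scaling to core T cell genes. Relb and Nfkb2, the pair of the alternative pathway, were at 20.2 ± 12.7 against 14.0 ± 3.40 and 21.5 ± 9.78 against 16.3 ± 5.37 RPKM (SD, n = 4 each). Both were lower in the positive library of replicate 1 and higher in those of replicates 2, 3 and 4.

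**Figure D3:**
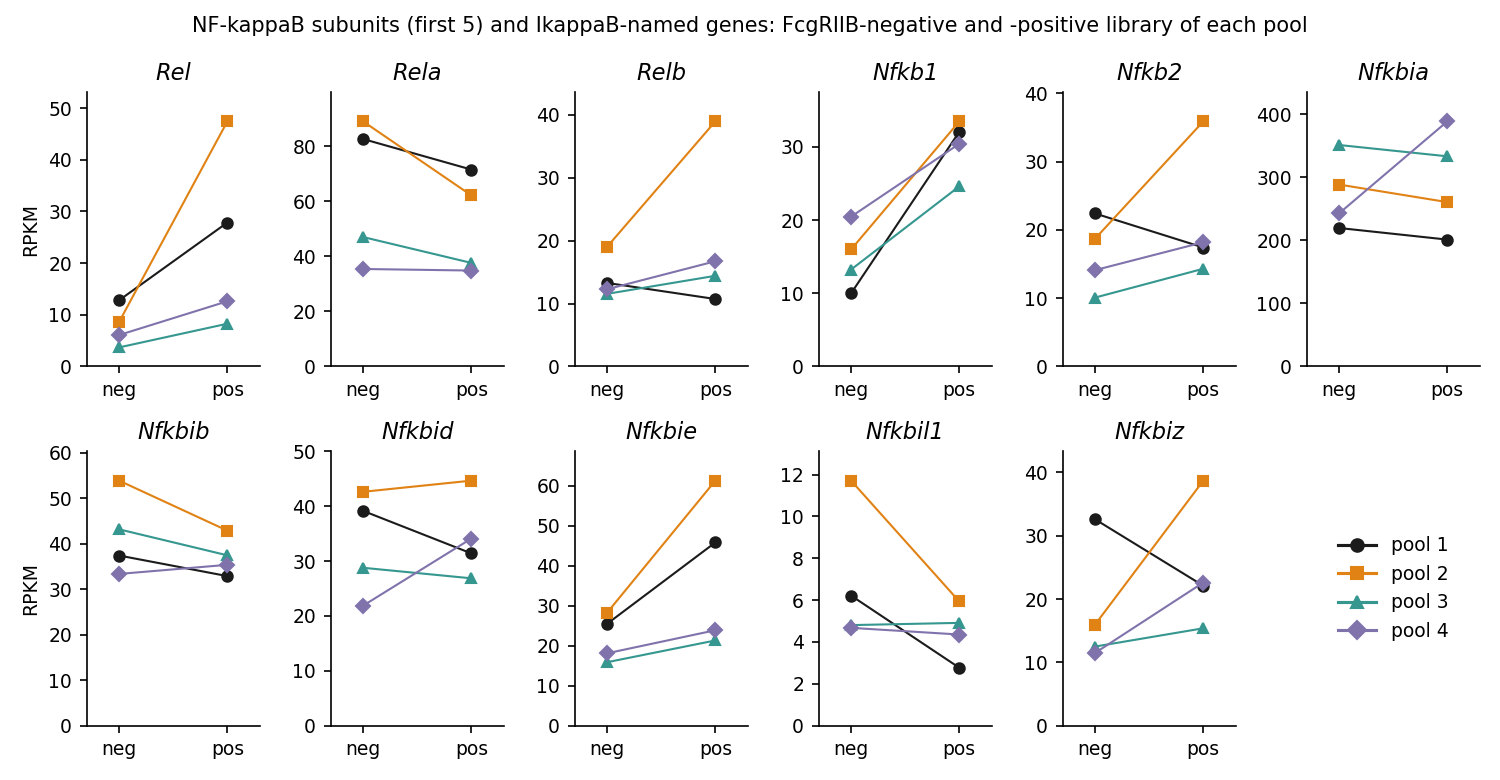
RPKM (linear axis from 0) of 5 NF-kappaB subunits and 6 Nfkbi genes, with 1 line per pool joining its FcgRIIB-negative to its FcgRIIB-positive library. All 4 lines rise for Rel, Nfkb1 and Nfkbie, and positive replicate 2 is the highest library for Rel, Relb, Nfkb1, Nfkb2, Nfkbid, Nfkbie and Nfkbiz.

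None of the 6 Nfkbi genes was called by limma (1 higher at an unadjusted p under 0.05 with the block and none without it). Nfkbia codes for IkappaB-alpha, the rapidly resynthesised inhibitor whose promoter is printed above. It was at 201.1, 260.5, 333.1 and 388.5 RPKM in positive and 219.5, 288.4, 351.1 and 242.6 RPKM in negative replicates 1 to 4. The groups overlapped throughout, and the difference on the log2 scale was 0.08 (SE 0.28, limma adjusted p = 0.924). Nfkbib, the gene of IkappaB-beta, was at 32.9, 42.9, 37.5 and 35.4 RPKM in positive and 37.4, 53.9, 43.2 and 33.4 RPKM in negative replicates 1 to 4 (log2 fold change -0.16, SE 0.23).

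Nfkbie, the gene of IkappaB-epsilon, was higher in 4 of 4 pairs at 38.1 ± 19.0 against 21.9 ± 5.89 RPKM (SD, n = 4 each), short of the threshold (log2 fold change 0.67, SE 0.23, limma adjusted p = 0.0691). Nfkbid and Nfkbiz code for nuclear IkappaB proteins that act as cofactors of transcription. Their log2 fold changes were 0.07 (SE 0.24) and 0.47 (SE 0.27). Nfkbil1, an IkappaB-like gene of low level, was at -0.47 (SE 0.29).

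Neither cIAP, the ubiquitin ligases bound to TRAF2, was called by limma (1 higher at an unadjusted p under 0.05 with the block and none without it). Birc3 (cIAP2) was at 50.03, 62.1, 15.7 and 16.0 RPKM in positive and 28.2, 28.6, 13.9 and 9.45 RPKM in negative replicates 1 to 4. It was higher in 4 of 4 pairs (log2 fold change 0.69, SE 0.24, limma adjusted p = 0.067). Birc2 (cIAP1) was at 44.8, 48.6, 8.07 and 10.6 RPKM in positive and 49.7, 25.5, 15.4 and 9.48 RPKM in negative replicates 1 to 4, a log2 fold change of 0.01 (SE 0.27).

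The Tnfaip symbols cover unrelated proteins, of which Tnfaip8, Tnfaip8l1 and Tnfaip8l2 belong to 1 family. Tnfaip2 (Entrez 21928) codes for a myeloid and endothelial protein linked to membrane nanotubes and was higher. It was at 4.65, 12.1, 13.7 and 18.8 RPKM in positive and 0.79, 5.31, 1.46 and 6.51 RPKM in negative replicates 1 to 4. Each pool was higher in its positive library, with overlap through positive replicate 1. By limma this was a log2 fold change of 1.67 (SE 0.30, adjusted p = 0.000388).

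Tnfaip8l1 (Entrez 66443), the gene of the TNFAIP8-like protein TIPE1, was lower. It was at 9.37, 5.30, 7.28 and 8.92 RPKM in positive and 14.6, 21.4, 18.1 and 12.2 RPKM in negative replicates 1 to 4, without overlap. With a log2 fold change of -1.01 (SE 0.27, limma adjusted p = 0.0174) it passed, but the adjusted p was 0.0717 and 0.134 without replicates 2 and 3.

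Tnfaip3 codes for A20, the ubiquitin-editing enzyme that ends NF-kappaB signalling, and is itself induced by NF-kappaB. It was at 177.7, 166.6, 61.3 and 77.1 RPKM in positive and 379.4, 143.9, 111.6 and 92.9 RPKM in negative replicates 1 to 4. Replicate 2 went against the other pools, with a difference of -0.50 on the log2 scale (SE 0.27, limma adjusted p = 0.277). Tnfaip8l2, the gene of the immune restraint TIPE2, was at 103.6, 81.3, 152.1 and 127.0 RPKM in positive and 85.3, 137.6, 192.0 and 97.1 RPKM in negative replicates 1 to 4. Its log2 fold change was -0.11 (SE 0.26), and those of Tnfaip1 and Tnfaip8 were 0.11 and -0.08.

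Around the members, 71 further genes of the pathway were listed, of which 66 were tested. Limma called 18 of them higher (27.3%, background 7.22%) and 8 lower (12.1%, background 3.85%). Without the block it called 8 higher and 1 lower (backgrounds 3.03% and 0.268%). Among 11 tested family members with other names, 2 were higher (18.2%, background 7.22%), the receptor genes Cd40 and Ltbr. Lower were 4 (36.4%, background 3.85%), namely Lta, Ltb, Cd27 and Fas. Cd40, the receptor through which T cells activate antigen-presenting cells, was at 53.7, 71.6, 21.0 and 24.9 RPKM in positive and 2.51, 19.5, 5.16 and 5.36 RPKM in negative replicates 1 to 4. By limma the log2 fold change of Cd40 was 2.41 (SE 0.31, adjusted p = 4.99e-06) and that of Ltbr, the lymphotoxin-beta receptor gene, 2.12 (SE 0.32, limma adjusted p = 4.56e-05).

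The lymphotoxin ligand genes Lta and Ltb went the other way from their receptor gene. Lta was at 4.86 ± 1.15 against 16.2 ± 7.003 RPKM and Cd27, a costimulatory receptor gene of T cells, at 88.4 ± 24.7 against 231.8 ± 68.7 RPKM (SD, n = 4 each). Lta, Ltb and Cd27 were called, with log2 fold changes of -1.49, -1.24 and -1.38. Without the block limma called Lta (adjusted p = 0.0317) but not Ltb (0.138) or Cd27 (0.103). After scaling to core T cell genes Lta was at -0.55 and Cd27 at -0.44, and neither was called. Tnf itself was at 10.9 ± 1.41 against 8.99 ± 3.00 RPKM and was not called (log2 fold change 0.30, SE 0.27).

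Of 33 adaptors, kinases and ubiquitin enzymes 2 were higher (6.06%, background 7.22%) and 3 lower (9.09%, background 3.85%), with a list median of -0.04 on the log2 scale. Without the block none of the 33 was called by limma (at an unadjusted p under 0.05, 2 were higher and 2 lower). Those called were Tnip2, a partner of A20 (1.05), the kinase gene Map3k8 (0.81), and, lower, the kinase genes Ripk2 (-0.92) and Ikbke (-0.89) and the TNF receptor adaptor gene Tradd (-0.82). The IKK genes Chuk, Ikbkb and Ikbkg had log2 fold changes of 0.36, -0.13 and 0.03 and were not called. Ripk2, Ikbke and Tradd were at 0.02, 0.05 and 0.12 after scaling to core T cell genes. Without replicate 3 none of these 3 nor Tnip2 was called (adjusted p of 0.144, 0.128, 0.0699 and 0.0531), and Ripk2 was not called without replicate 1 either (0.0884). Tradd was called in no fit with a pool left out (limma adjusted p of 0.0582 to 0.102), nor after median-ratio scaling.

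Of 22 tested NF-kappaB target genes 14 were higher (63.6%, background 7.22%) and 1 was lower (4.55%, background 3.85%; Myc, -0.85), with a list median of 1.23 on the log2 scale. Without the block 6 were called higher and none lower by limma (backgrounds 3.03% and 0.268%), with 13 higher and none lower at an unadjusted p under 0.05. Cd83, which marks mature dendritic cells, had means of 140.7 ± 115.3 and 16.1 ± 12.2 RPKM, a log2 fold change of 2.98 (SE 0.24, limma adjusted p = 5.39e-09). Ccl3, a chemokine of myeloid cells and T cells, was at 220.9 ± 161.4 against 22.7 ± 6.38 RPKM (2.93), Ebi3 at 27.1 ± 0.59 against 4.57 ± 2.80 RPKM (2.49) and Il1b at 55.7 ± 11.1 against 13.0 ± 16.7 RPKM (2.63; SD, n = 4 each). In the same libraries the dendritic cell marker sum was 721.8 to 1384 against 34.5 to 114.1 RPKM, and its part in these values was not tested. The 7 not called, named after their values were seen, were Ccl4 (0.88), Gadd45b (0.45), Bcl2l1 (-0.07), Sod2 (-0.10), Irf1 (-0.42), Junb (-0.59) and Ccr7 (-0.63). The target list was chosen with earlier results known and holds none of the members. Traf1 (-0.35) and Tnfaip3 (-0.50), described above as induced by NF-kappaB, were thus outside it and were not called.

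**Figure D4:**
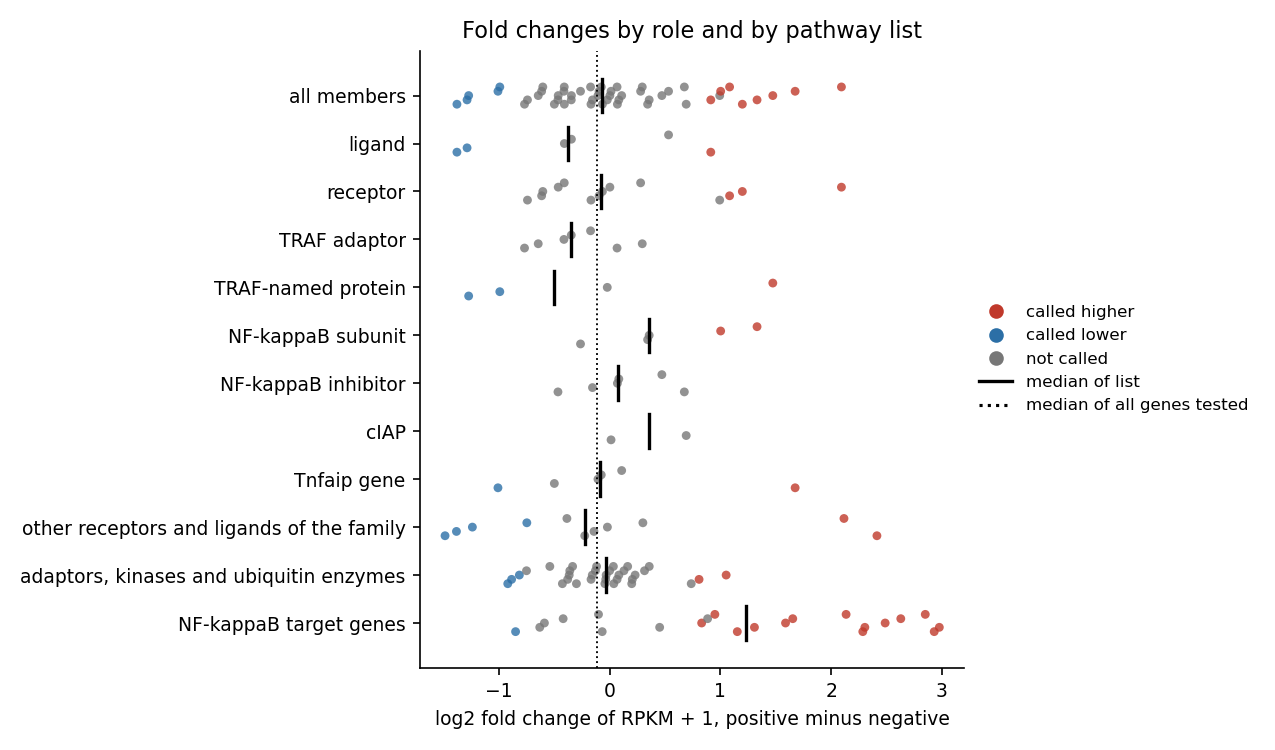
Log2 fold change of RPKM + 1 (positive minus negative) of each tested gene, in 1 row for all members, 1 per role and 1 per pathway list, with the list median as a bar and the median of all genes tested dotted. The NF-kappaB target list has a median of 1.23, the subunits of 0.36 and the numbered TRAFs of -0.35.

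Some members separated the pools in both groups. In 10 of 50 members all 4 libraries of replicates 1 and 2 lay above all 4 of replicates 3 and 4 (20%, against 15% of all genes tested), and in 2 they lay below (4%, against 16.6%). The 10 were Birc2, Birc3, Tnfrsf1b, Tnfaip3, Traf7, Traf2, Traf1, Rela, Nfkbie and Tnfaip1. Birc2 had the largest difference of the 10, at 25.5 to 49.7 RPKM in pools 1 and 2 against 8.07 to 15.4 RPKM in the other two. In the other direction lay Tnfrsf12a, the gene of the TWEAK receptor, at 4.73 to 6.84 against 7.42 to 8.82 RPKM. Tnfrsf10b, the gene of the mouse TRAIL death receptor, did so too, at 1.48 to 3.44 against 8.13 to 26.4 RPKM. The labels name no batch, and depth differed along the same line. None of these 12 members was among the 13 called between groups, with a background of 11.1% called in either direction. For 12 members a count of none is near that share. Pools 1 and 2 alone gave 7 of 50 members called higher (background 8.12%) and 1 lower (background 1.49%). Pools 3 and 4 alone gave 3 higher (background 4.94%) and 3 lower (background 2.08%).

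**Figure D5:**
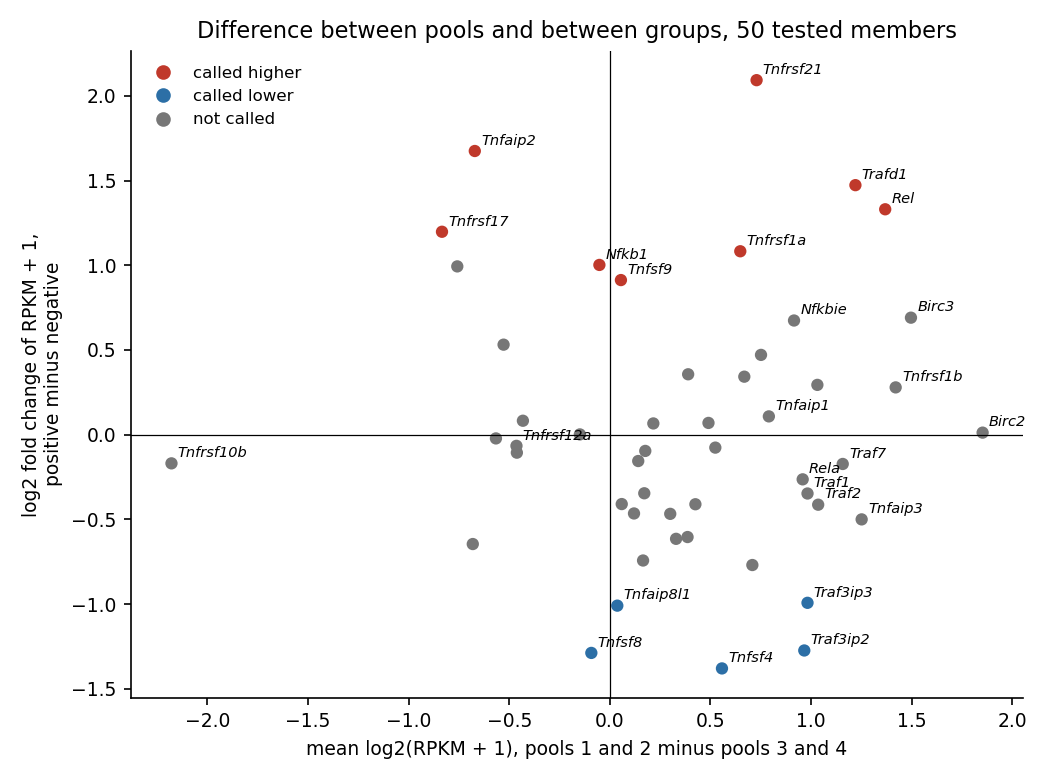
Difference in mean log2(RPKM + 1) between replicates 1 and 2 and replicates 3 and 4 (horizontal) against the log2 fold change between the groups (vertical) for the 50 tested members, coloured by call. Birc2 lies farthest right at 1.85 with a group difference of 0.01, and Tnfrsf10b farthest left at -2.18 with a group difference of -0.17.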

How the data were processed

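RPKM per gene in 8 libraries, 4 FcgRIIB-positive and 4 FcgRIIB-negative, were used as the authors deposited them, per the file headers. Per the submitters' processing notes, TopHat2 and mm9 were used. Read counting and annotation are not given in the sources used here. Depths were recovered by finding the value of 1 read from RPKM times exon length, with a tolerance of 0.1 reads, and came to 3050000 to 22010000 reads. Reads from amplified cDNA are not independent molecules.

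Limma (version 3.58.1, R 4.3.3; lmFit, eBayes with a trend) was run on log2(RPKM + 1), two-sided, with the replicate number as a block, because each pool gave a library to both groups. After subtracting group means, the 2 libraries of a pool correlated across genes (r of 0.70, 0.41, 0.56 and 0.68 for pools 1 to 4). Testing was limited to the 11946 of 13204 genes that reached 1 RPKM in 4 or more libraries. P-values were adjusted by Benjamini-Hochberg over these genes, with a threshold of 0.05. Alternatives were no block, other pseudocounts, filters and scalings, and leaving out each pool. The fit was checked on simulated data.

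Members, gene lists and marker lists were chosen with earlier results of these data known. Named with values in every library were up to 6 called members and the 2 most abundant members of each role, with the TRAF-named genes split off after their names were seen, and up to 4 called genes of each pathway list. Neutrophil markers were called lower for 1 of 7 and natural killer cell markers for 1 of 6, with none called higher. Promoter sequences are RefSeq's for GRCm38.p6, another build than mm9, and no coordinate was joined to the RPKM values.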

Additional observations from a re-analysis of the deposited data

Results flagged for a closer look

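In groups of 4 libraries, a library was picked out when its gap to the nearest other library took more of the group's range than Dixon's 95% critical value allows, on the log2(RPKM + 1) scale. Of 72 gene and group combinations screened 2 were picked out, and chance gives about 1 in 20. Tnip2 was at 40.4 RPKM in positive replicate 2 and at 14.0 to 16.0 RPKM in the other positive libraries, a gap of 0.875 of the range. Its call as higher did not hold without replicate 3 (adjusted p = 0.0531, limma). Tradd was at 34.8 RPKM in positive replicate 3 and at 23.2 to 24.7 RPKM in the other positive libraries, a gap of 0.848 of the range. Its call as lower ended with any 1 of the 4 pools left out (adjusted p up to 0.102, limma).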

How the results depend on the processing

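Members called numbered 8 higher and 5 lower, genes of the pathway lists 18 and 8, and all genes 863 and 460. Without the replicate block limma called 1 and 1 members, 8 and 1 pathway genes, and 362 and 32 of all genes. After scaling to core T cell genes it called 29 members higher and 0 lower (0 lower at an unadjusted p under 0.05), 45 and 0 pathway genes (0 lower likewise) and 6471 and 17 of all genes, and the member median was 0.87. With 1 pool left out the members called ranged from 5 to 10 higher and 3 to 6 lower, the pathway genes from 13 to 17 higher and 3 to 7 lower, and all genes called lower from 157 to 458, with the fewest members higher without pool 1 and the fewest members, pathway genes and genes lower without pool 3. Within replicates 1 and 2, chosen after seeing the data, 1 member, 3 pathway genes and 178 of all genes were lower. Within replicates 3 and 4, 3 members were higher, and 3 members, 5 pathway genes and 249 of all genes were lower. Core T scaling turned 22 of the 27 members below 0 to above 0, and the other 5, those called lower, stayed below 0. Turning was followed only for the members and for up to 4 called genes of each pathway list, so other pathway genes that turned are not named. Of those followed, the genes called in either fit that turned were Traf1 (0.59), Rela (0.68), Traf7 (0.77), Nfkbib (0.78), Tnfaip8l2 (0.83), Tnfaip8 (0.86), Tnfrsf12a (0.87), Ripk2 (0.0193), Ikbke (0.054) and Tradd (0.12). Core T scaling moves every gene of a library by 1 factor, and fewer samples stand behind the fits without pools. Other pseudocounts, filters and the median-ratio and quantile scalings left all these counts within 1.5 times. Among called members still tested, Tnfrsf17 alone lost its call under these, at a pseudocount of 5 RPKM. Calls were gained by Birc3 and Nfkbie (quantile scaling), Tnfrsf11a (median-ratio scaling) and Traf5 (filter at 5 RPKM). Depth limits Tnfrsf17 and Tnfsf4, with under 10 reads in a library.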
